A study of Mus musculus with 12 samples.

Results

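The genes described here are 50 genes of DNA replication and of the passage from G1 into S phase, chosen by name from a fixed list. They comprise the MCM helicase and the factors that load and start it, the polymerases, primase and sliding clamp, the proteins that bind single strands and join Okazaki fragments, the enzymes that supply deoxynucleotides, the E2F factors with the E cyclins, and 2 genes of chromatin and histone mRNA. Of the 50 genes, 49 had a transcript cluster, the array's unit for 1 gene, and each of the 49 had exactly 1. They are 49 of 22206 transcript clusters that were tested. Mcm7 had no transcript cluster of that symbol and was not analysed here.

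RNA came from cultured S100β-v-erbB/p53-/- mouse cells of the FVB-NJ strain, labelled TSC1 cells, and was hybridised to Clarion S mouse arrays. The v-erbB oncogene is a constantly active relative of the epidermal growth factor receptor, expressed here from the S100β promoter, which is active in glial cells, and the p53 gene is deleted, in the controls as in the treated cells. There were 4 groups of 3 arrays, each after 16 h: normoxia with the solvent DMSO, hypoxia with DMSO, hypoxia with brefeldin A (BFA), and hypoxia with EHT-1864. Brefeldin A blocks ARF activation and traffic from the endoplasmic reticulum to the Golgi, and EHT-1864 inhibits Rac GTPases. EHT-1864 was given at 1 µM. For BFA the treatment protocol states 1 µM and the series title 0.1 µM, so differences between the compounds are at doses that may not be the same. The labels speak of independent cultures without saying which array came from which, so a p-value here weighs differences against variation among arrays that could be technical. No compound was tested in normoxia.

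Before S phase, ORC, Cdc6 and Cdt1 load the MCM ring onto origins, and geminin (Gmnn) blocks Cdt1 until the next cycle. Cyclin E with its kinase and the Dbf4-Cdc7 kinase then start the helicase, to which Cdc45 and the GINS complex bind, and primase and the polymerases follow. Transcription of much of this machinery is switched on late in G1 by E2F factors once the RB protein is phosphorylated. E2f1 and E2f2 are activators, whereas E2f7 and E2f8 are repressors that are themselves induced in S phase.

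E2F factors are known to act at the promoters of many of these genes, so the RefSeq promoter windows of 4 members are shown, each 300 bases long and ending 50 bases after the annotated start. Mcm6 and Mcm3 fell with BFA and did not pass the threshold with EHT-1864, E2f2 fell with both compounds, and Prim1 fell with BFA and rose with EHT-1864. All are from the GRCm38.p6 table, written 5′ to 3′ on the gene's strand. The windows are chr1:128359656-128359955, minus strand, for Mcm6, and chr1:20820263-20820562, minus strand, for Mcm3. Those of E2f2 and Prim1 are chr4:136172024-136172323 and chr10:128014965-128015264, both on the plus strand. Capitals mark the letters TTTCCCGC, TTTCGCGC, TTTGCCGC or TTTGGCGC on either strand, forms of the E2F motif. For E2f2, which has more than 1 window in the table, the window holding such letters is shown.
Mcm6: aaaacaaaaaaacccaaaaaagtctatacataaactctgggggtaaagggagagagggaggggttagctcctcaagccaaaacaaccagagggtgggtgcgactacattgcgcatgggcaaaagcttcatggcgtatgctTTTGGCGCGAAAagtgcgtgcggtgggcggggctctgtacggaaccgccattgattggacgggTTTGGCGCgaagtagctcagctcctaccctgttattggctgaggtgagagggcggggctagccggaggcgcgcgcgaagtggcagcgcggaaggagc
Mcm3: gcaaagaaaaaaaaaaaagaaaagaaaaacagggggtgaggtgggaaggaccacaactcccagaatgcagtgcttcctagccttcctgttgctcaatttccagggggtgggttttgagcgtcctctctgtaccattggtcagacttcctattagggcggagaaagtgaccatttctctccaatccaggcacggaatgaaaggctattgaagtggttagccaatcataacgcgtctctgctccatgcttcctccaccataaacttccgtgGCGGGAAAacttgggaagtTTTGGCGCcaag
E2f2: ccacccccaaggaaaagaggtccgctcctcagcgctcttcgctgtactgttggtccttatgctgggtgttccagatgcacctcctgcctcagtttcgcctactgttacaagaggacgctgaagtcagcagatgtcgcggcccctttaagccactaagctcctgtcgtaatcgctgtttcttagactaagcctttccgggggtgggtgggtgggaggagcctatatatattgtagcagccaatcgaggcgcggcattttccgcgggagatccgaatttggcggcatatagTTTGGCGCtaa
Prim1: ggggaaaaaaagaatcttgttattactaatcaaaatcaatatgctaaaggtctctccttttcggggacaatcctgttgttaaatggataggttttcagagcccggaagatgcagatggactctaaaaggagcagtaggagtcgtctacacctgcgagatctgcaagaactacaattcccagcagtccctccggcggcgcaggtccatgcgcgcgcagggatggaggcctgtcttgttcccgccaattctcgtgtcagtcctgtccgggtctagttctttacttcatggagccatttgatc

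Mcm6 held 3 matches, of which 2 overlapped, Mcm3 held 2 and E2f2 held 1, and Prim1 held none. Of the measured members, 40 matched the promoter table, with 47 windows, and these letters occurred in 15 of the 47 windows (31.9%). Over all 32851 windows of the same length the share was 2.26%. By response to EHT-1864, they occurred in 0 of 5 windows of the members that rose, in 4 of 11 windows of those that fell and in 11 of 31 windows of those that did not pass. Mcm4, Gins2 and Prim2, which also rose, had no window in the promoter table. A difference between these shares was not tested. The CCAAT box (CCAAT) stood in 55.3% of the members' windows and in 37.4% of all. The letters TTTGAA, the CHR motif of cell cycle genes, stood in 19.1% and 17.9%, and the E-box CACGTG in 10.6% and 7.15%. Each motif was searched on both strands. The median GC content was 61.3% in the members' windows and 52.7% in all, and a match is a description of letters, not of a bound site.

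Values are log2 signals, and an array's floor is the 95th percentile of its neg control probes, so that a gene under it was not above background. The members' median log2 signal was 8.09 to 8.22 on the normoxia arrays, 7.64 to 7.91 on the hypoxia DMSO arrays, 6.54 to 6.88 with BFA and 7.53 to 7.81 with EHT-1864. No member lay below the floor on all 3 normoxia arrays, 1 (Gmnn) did so in hypoxia with DMSO, 15 with BFA and 3 (Orc1, Gmnn and Pole2) with EHT-1864. A further 12 members with BFA, among them E2f1, E2f7, E2f8, Ccne2, Uhrf1 and Cdc7, and 5 with EHT-1864 (Pold1, Ung, E2f2, Ccne1 and Ccne2) were below the floor on 1 or 2 of the 3 arrays. The floor itself was higher with the compounds: 5.59 to 5.64 on the DMSO arrays, 6.37 to 6.65 with BFA and 5.88 to 6.15 with EHT-1864. A member can thus lie below it with BFA without a lower signal. Orc1 did so, with a mean of 5.71 with BFA and 5.62 in hypoxia with DMSO. The arrays with a compound also stood apart over all transcript clusters. Between 51.6% and 52.3% of clusters were below the floor on the DMSO arrays, 63.2% to 67.9% with BFA and 55.9% to 60.0% with EHT-1864. The SD of all clusters was 2.46 to 2.52 with DMSO, 2.22 to 2.32 with BFA and 2.38 to 2.44 with EHT-1864, and the part of this narrowing in the results was not tested beyond the other scalings named below. The arrays' hybridization controls averaged 9.69 to 9.92 with DMSO, 10.82 to 11.06 with BFA and 10.20 to 10.33 with EHT-1864. This difference goes with the treatment and cannot be told apart from it, and its part in the members' values was not tested.

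The labelled glial origin was checked by markers. All 8 measured markers of oligodendrocyte and neural progenitors, such as Olig2, Sox10 and Sox2, were above the floor in normoxia. Of the markers of other cell types, 4 of 8 for astrocytes, 4 of 9 for neurons, 1 of 8 for microglia and macrophages, 2 of 8 for fibroblasts and pericytes and 0 of 7 for endothelial cells were above it on any array. The progenitor markers moved with the compounds: 7 of 8 were lower with BFA (median log2 difference -2.77) and 8 of 8 with EHT-1864 (median -1.07). Of all clusters, 24.6% and 17.4% were lower. The part of the markers' fall in the members' values was not tested. In bulk samples, fewer cells of a kind, such as cells in S phase, and less RNA of a gene per cell cannot be told apart. Trp53, the deleted gene, had no transcript cluster of that symbol and was not analysed here.

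**Figure D1:**
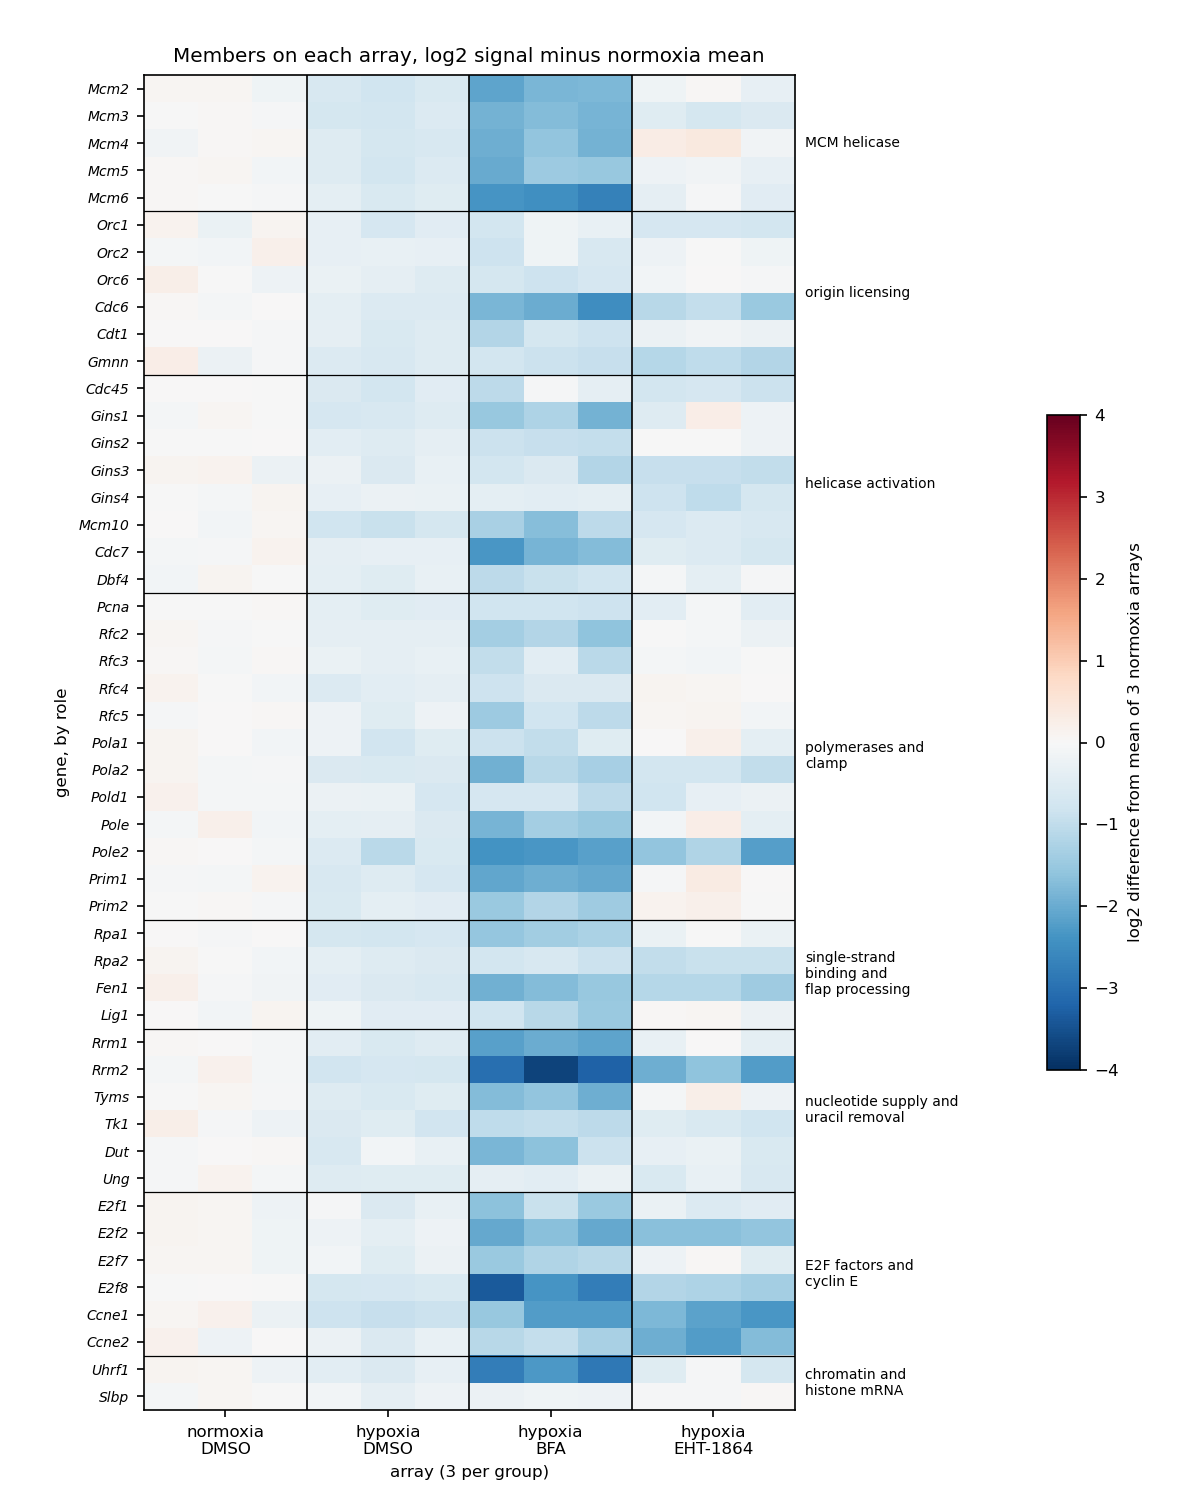
Log2 signal of the 49 measured members on each of the 12 arrays (columns, 3 per group), minus the member's mean over the 3 normoxia arrays, with genes in rows by role; blue is lower and red is higher than normoxia. BFA columns are the darkest blue, and with EHT-1864 the MCM and primase genes are near white while cyclin E and Rrm2 are blue.

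The first comparison was hypoxia against normoxia, both with DMSO. The log2 difference was below 0 for every one of the 49 members, from -0.87 for Ccne1 to -0.23 for Slbp, with a median of -0.49, against a median of -0.03 over all transcript clusters. With limma fitted over all clusters and Benjamini-Hochberg adjusted p under 0.05, 9 members passed as lower and 0 as higher, against 0.563% of all clusters lower and 2.11% higher. At limma's unadjusted p under 0.05, 39 members were lower and 0 higher, against 7.8% and 8% of all clusters. The 9 were Mcm2, Mcm3, Gmnn, Mcm10, Prim1, Rpa1, Rpa2, Tk1 and Ccne1. For 47 of the 49 members all 3 hypoxia arrays lay below all 3 normoxia arrays, the exceptions being E2f1 and E2f7, and 16.2% of all clusters were ordered this way. Below, "±" after a log2 difference is the standard error of the fit.

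Among the MCM genes, which encode the ring that unwinds DNA, Mcm2 had log2 signals of 9.42, 9.42 and 9.17 in normoxia and 8.71, 8.55 and 8.73 in hypoxia. It fell by 0.68 ± 0.14 (adjusted p = 0.0196), 1.60-fold lower. Mcm3 had 9.38, 9.42 and 9.34 in normoxia and 8.67, 8.65 and 8.84 in hypoxia, and fell by 0.66 ± 0.11 (adjusted p = 0.00598). For both genes every hypoxia array was below every normoxia array. Mcm4, Mcm5 and Mcm6 had log2 differences of -0.62, -0.60 and -0.49 and did not pass (adjusted p = 0.0551, 0.0548 and 0.0761).

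Mcm10, which helps to activate the loaded helicase, fell by 0.80 ± 0.16 (adjusted p = 0.0151), from 8.79, 8.66 and 8.85 to 7.99, 7.86 and 8.06. Prim1, the catalytic subunit of primase, fell by 0.62 ± 0.13 (adjusted p = 0.0196), from 9.14, 9.12 and 9.33 to 8.55, 8.67 and 8.52. Rpa1, the large subunit of the single-strand binding protein RPA, fell by 0.71 ± 0.12 (adjusted p = 0.00533), from 9.80, 9.75 and 9.80 to 9.09, 9.03 and 9.10. The separation between groups was several times the spread within them in these genes. Rpa2, another RPA subunit, fell by 0.49 ± 0.11 (adjusted p = 0.039) and Tk1, the thymidine kinase of nucleotide salvage, by 0.61 ± 0.14 (adjusted p = 0.0384). Gmnn passed as lower (log2 difference -0.58 ± 0.13, adjusted p = 0.0384), but it was below the floor on all 3 hypoxia arrays and gives no fold.

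Ccne1, one of the cyclins E that drive entry into S phase, had the difference farthest from 0. Its signals were 7.94, 8.04 and 7.64 in normoxia and 7.03, 6.94 and 7.03 in hypoxia, so that the groups did not overlap. It fell by 0.87 ± 0.20 (adjusted p = 0.0345), 1.83-fold lower. Ccne2 had a log2 difference of -0.37 ± 0.16 (adjusted p = 0.285), and the 4 E2F genes had differences between -0.66 (E2f8) and -0.27 (E2f2), of which none passed.

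The number of members past the threshold in this comparison turned on single arrays. Without any 1 of the 6 normoxia and hypoxia DMSO arrays it was 2 to 4. It was 23 without the first BFA array, 18 without the second BFA array and 17 without the second EHT-1864 array, which enter only through the shared spread. Mcm3 and Rpa1 were past the threshold in every alternative run, and the other 7 were not (adjusted p from 0.0505 to 0.166 where an array was left out). Ccne1, Prim1, Rpa2 and Tk1 failed it without any 1 of the 6 arrays, Mcm2 without any but the third normoxia array, and Gmnn without any but the second normoxia array. Mcm10 failed it without the first or second hypoxia DMSO array or the first or the third normoxia array, and Gmnn and Rpa2 also without the first or the third EHT-1864 array.

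**Figure D2:**
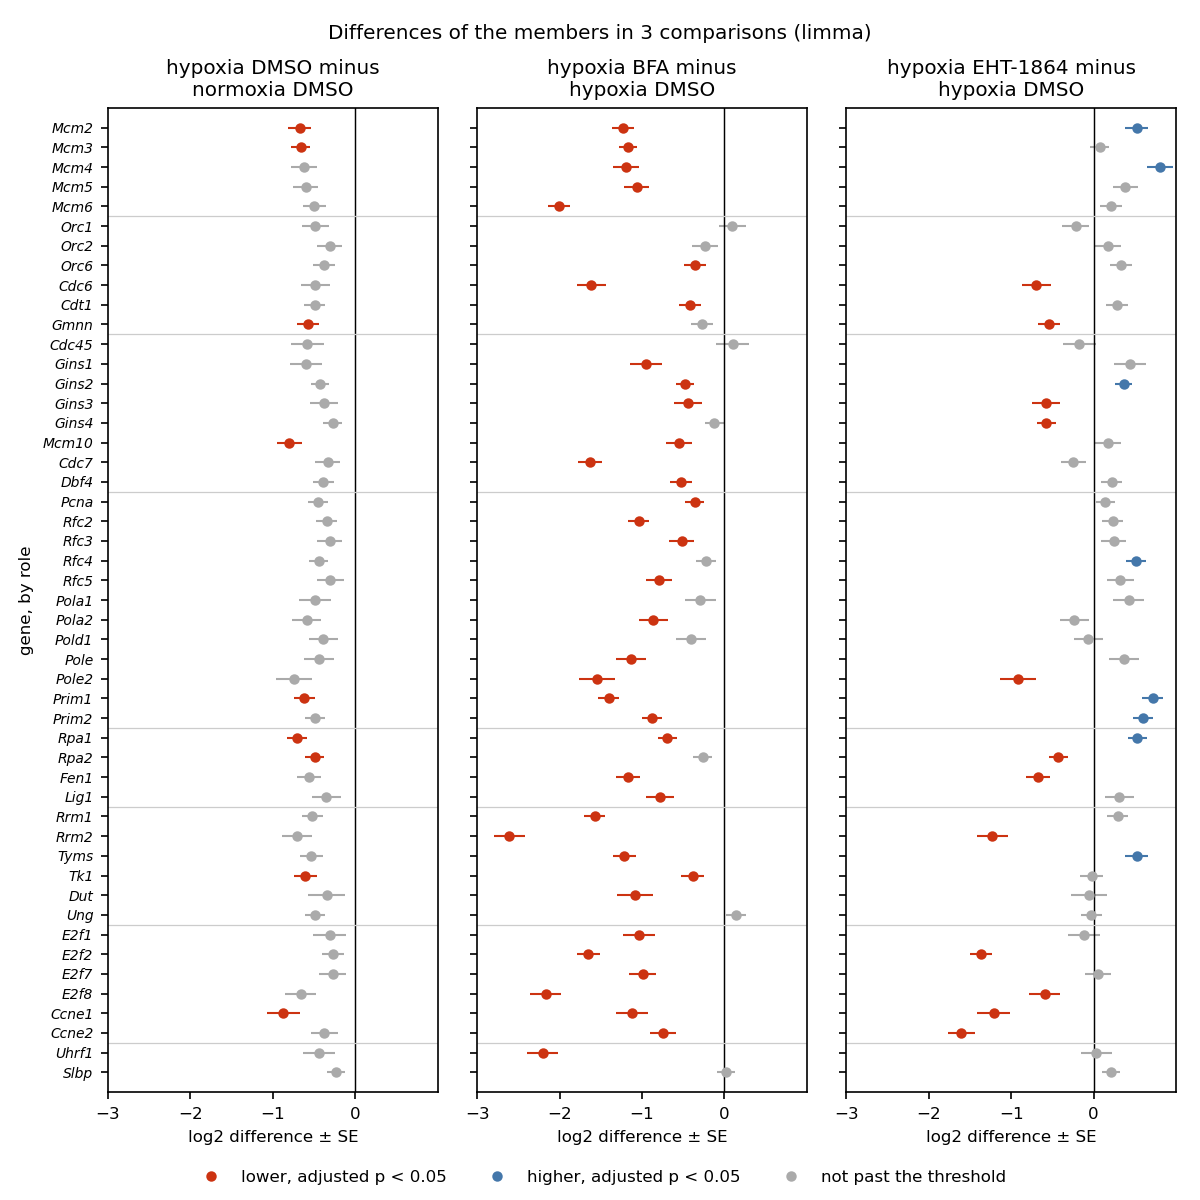
Log2 difference (x axis, point) with its standard error (bar) for each of the 49 members, by role, in 3 comparisons; red and blue points passed adjusted p under 0.05 as lower or higher, and grey ones did not. All points of the first panel lie left of 0, in the second 38 are red (the signs of Pcna, Orc6, Cdt1 and Rpa1 among them turn where the arrays are scaled to a common spread), and the EHT-1864 panel has 12 red and 8 blue.

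The second comparison was BFA against DMSO, both in hypoxia. Of the 49 members 38 were lower with BFA and 0 higher, against 24.6% of all clusters lower and 26.1% higher, and of the 38 the signs of Pcna, Orc6, Cdt1 and Rpa1 turned when arrays were scaled to a common median absolute deviation. At limma's unadjusted p under 0.05, 0 members were higher, against 30.6% of all clusters. The median log2 difference was -0.86, against 0.11 over all clusters, and -0.52 with members below the floor placed at their bounds, or at 0 where no bound could be had. Among the 10545 clusters with a log2 signal of at least 6 on at least 3 arrays, 47.6% were lower and 20.8% higher, and of the 47 members there 40 were lower. The falls covered all 5 measured MCM genes, all 6 genes of the E2F and cyclin E group, 9 of 12 of the polymerase and clamp genes, 6 of 8 of helicase activation, 5 of 6 of nucleotide supply, 3 of 4 of single-strand binding and flap processing, and 3 of 6 of origin licensing. Of the 38, 13 did not pass as lower in at least 1 alternative: Ccne2, Cdt1, Dbf4, Gins2, Gins3, Mcm5, Mcm10, Orc6, Pcna, Pola2, Rfc3, Rpa1 and Tk1.

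Rrm2, the small subunit of ribonucleotide reductase, which makes deoxynucleotides, fell below background with BFA. Its signals were 8.26, 8.35 and 8.33 in hypoxia with DMSO and 5.99, 5.32 and 5.79 with BFA, and the last 3 were below the floor. It fell by 2.61 ± 0.19 on the log2 scale (adjusted p = 2.18e-07), or at least 3.54-fold against the floor. That bound, given wherever a member is below background in one group, sets the brighter group's mean against the floor or the measured signal, whichever is higher. The large subunit Rrm1 stayed above background in every group and fell by 1.57 ± 0.13 (adjusted p = 7.04e-07), from 9.88, 9.70 and 9.81 to 8.15, 8.33 and 8.20. Tyms, thymidylate synthase, fell by 1.21 ± 0.14 (adjusted p = 1.25e-05).

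Mcm6 had signals of 9.36, 9.17 and 9.28 with DMSO and 7.39, 7.31 and 7.07 with BFA. It fell by 2.01 ± 0.13 (adjusted p = 1.28e-07), 4.03-fold lower. The other MCM genes fell by 1.23 (Mcm2), 1.17 (Mcm3), 1.19 (Mcm4) and 1.07 (Mcm5), so Mcm6 had the lowest difference of the ring's measured genes. Mcm5 was the one of these whose fall did not pass under the common spread (log2 difference -0.29, adjusted p = 0.127).

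Cdc7, the kinase that starts loaded helicases, had signals of 8.36, 8.40 and 8.38 with DMSO and 6.39, 6.86 and 6.99 with BFA (above the floor on 2 of 3 arrays), and fell by 1.63 ± 0.15 (adjusted p = 2e-06). Its partner Dbf4 fell by 0.53 ± 0.13 (adjusted p = 0.0047), but not after quantile normalization or with a common spread (adjusted p = 0.269 and 0.275). Cdc6, the ATPase that loads the ring with ORC, fell by 1.62 ± 0.18 (adjusted p = 9.04e-06), at least 1.69-fold against the floor. Orc6 and Cdt1 fell by 0.36 and 0.42 (adjusted p = 0.0375 and 0.0183), and neither passed without the first BFA array (adjusted p = 0.0552 and 0.0602) or without the first hypoxia DMSO array (adjusted p = 0.126 and 0.0726). Orc6 also did not pass without the second BFA, hypoxia DMSO or normoxia array (adjusted p = 0.0944, 0.0902 and 0.0514). Orc1 and Orc2 did not pass (log2 differences 0.09 and -0.24).

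Of the polymerase genes, Prim1 fell by 1.40 ± 0.13 (log2). Prim1 had 7.12, 7.25 and 7.15 with BFA, all below the hypoxia DMSO arrays listed above. Pole2, a subunit of the leading-strand polymerase, passed as lower but was below the floor with BFA and gives no fold. Pcna, the sliding clamp, fell by 0.36 ± 0.12 (adjusted p = 0.0208), from 11.08, 10.98 and 11.01 to 10.66, 10.69 and 10.63. Its call depended on the scaling: quantile normalization gave -0.11 (adjusted p = 0.48) and a common spread gave 0.75, past the threshold as higher (adjusted p = 0.00293). It also did not pass without the third BFA array (adjusted p = 0.0504) or the first hypoxia DMSO array (adjusted p = 0.0663).

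E2f8, an E2F repressor of S phase, had signals of 8.16, 8.20 and 8.27 with DMSO and 5.52, 6.50 and 6.09 with BFA. It fell by 2.17 ± 0.19 (adjusted p = 1.25e-06), with all BFA arrays below the controls but spread widely (SD 0.49). It was above the floor on only 1 of the 3 BFA arrays, so no fold is given. E2f2 fell by 1.65 ± 0.14 (adjusted p = 7.3e-07), from 7.43, 7.22 and 7.42 to 5.59, 5.94 and 5.58, at least 1.82-fold against the floor. The repressor E2f7 and the activator E2f1 fell by 0.99 and 1.03, and the cyclins Ccne1 and Ccne2 by 1.12 (at least 1.42-fold against the floor) and 0.74. Uhrf1, which guides maintenance DNA methylation behind the fork, fell by 2.21 ± 0.19 (adjusted p = 1.05e-06), from 8.88, 8.71 and 8.96 to 6.51, 7.0 and 6.42, of which 1 was above the floor.

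The members nearest 0 with BFA were Slbp, Orc1 and Cdc45. Slbp, which binds the stem-loop of histone mRNA, had 9.04, 8.82 and 8.95 with DMSO and 8.94, 8.99 and 8.95 with BFA (log2 difference 0.02, 95% interval -0.21 to 0.26). Cdc45, a part of the active helicase, had 8.24, 8.08 and 8.35 with DMSO and 7.75, 8.76 and 8.45 with BFA, with a difference of 0.10 (interval -0.33 to 0.53). Its BFA arrays lay on both sides of the controls, whereas those of Slbp lay within their range. Orc1 had 5.76, 5.44 and 5.66 with DMSO and 5.39, 5.93 and 5.82 with BFA, the latter all below the floor, with a difference of 0.09 (interval -0.26 to 0.45). Rpa2, Gins4 and Rfc4 had differences of -0.26, -0.12 and -0.22 and did not pass.

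The third comparison was EHT-1864 against DMSO in hypoxia, and here the members split. Of the 49 members 12 were lower and 8 higher, against 17.4% of all clusters lower and 13% higher, so neither share (24.5% and 16.3%) was far from that background. The median log2 difference was 0.14, against 0.06 over all clusters. The 8 that rose were Mcm2, Mcm4, Gins2, Rfc4, Prim1, Prim2, Rpa1 and Tyms, and the 12 that fell were Cdc6, Gmnn, Gins3, Gins4, Pole2, Rpa2, Fen1, Rrm2, E2f2, E2f8, Ccne1 and Ccne2. Among the brighter clusters named above, 36.1% were lower and 19.6% higher, and 11 members were lower and 11 higher. The number that rose depended on the scaling: it was 19 after quantile normalization and 22 with a common spread, where 6 fell. The background moved too. Of all 22206 clusters, 2893 were higher on the deposited values, 2978 after quantile normalization and 4267 with a common spread. Lower were 3874, 3005 and 2578.

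The subunits of primase, which lays down the RNA primers, rose together. Prim1 had 8.55, 8.67 and 8.52 with DMSO and 9.15, 9.52 and 9.22 with EHT-1864, and rose by 0.72 ± 0.13 (adjusted p = 0.000976), 1.65-fold. Prim2 had 8.08, 8.30 and 8.23 with DMSO and 8.84, 8.90 and 8.67 with EHT-1864, and rose by 0.60 ± 0.12 (adjusted p = 0.00274), 1.52-fold. Every EHT-1864 array was above every hypoxia DMSO array for both genes. Rfc4, a subunit of the loader that places Pcna on DNA, rose by 0.52 ± 0.12 (adjusted p = 0.0063), from 8.87, 9.00 and 9.05 to 9.52, 9.51 and 9.44. Rfc2, Rfc3 and Rfc5 of the same loader had differences of 0.23, 0.24 and 0.33 and did not pass.

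Mcm4 had 8.66, 8.50 and 8.53 with DMSO and 9.49, 9.59 and 9.04 with EHT-1864. It rose by 0.81 ± 0.16 (adjusted p = 0.00191), 1.75-fold, the highest difference of any member. Mcm2 rose by 0.52 ± 0.14 (adjusted p = 0.0121), to 9.15, 9.38 and 9.02, whereas Mcm3, Mcm5 and Mcm6 had differences of 0.07, 0.38 and 0.21 and did not pass. So 2 of the 5 measured genes of 1 ring passed, and a difference between the ring's genes was not tested. Rpa1 rose by 0.53 ± 0.12 (adjusted p = 0.00471), to 9.52, 9.77 and 9.52, and Tyms by 0.52 ± 0.14 (adjusted p = 0.0121), from 8.50, 8.40 and 8.54 to 8.94, 9.24 and 8.82. Gins2, of the GINS complex, rose by 0.36 ± 0.11 (adjusted p = 0.0212), from 7.66, 7.57 and 7.72 to 8.08, 8.07 and 7.89.

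The 20 members called kept their sign under each scaling. Without the second EHT-1864 array, 5 members rose instead of 8, since Mcm2, Tyms and Gins2 did not pass (adjusted p = 0.0532, 0.0532 and 0.0629). Gins2 also did not pass without the first EHT-1864 array or without the first or second hypoxia DMSO array (adjusted p = 0.0651, 0.0538 and 0.0785). The other members that rose, Mcm4, Rfc4, Prim1, Prim2 and Rpa1, passed under all alternatives tried. The same second EHT-1864 array was the highest of its group for Mcm2, Mcm4, Prim1, Prim2, Rpa1 and Tyms.

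Both E cyclins fell. Ccne2 had 7.46, 7.14 and 7.40 with DMSO and 5.77, 5.46 and 5.96 with EHT-1864, and fell by 1.61 ± 0.16 (adjusted p = 1.86e-05). Ccne1 had 6.08, 5.74 and 5.55 with EHT-1864, against 7.03, 6.94 and 7.03 on the controls, and fell by 1.21 ± 0.20 (adjusted p = 0.00061). The groups did not overlap for either gene. E2f2 fell by 1.36 ± 0.14 (adjusted p = 1.57e-05), to 5.95, 5.96 and 6.06. Each of these 3 genes was above the floor on only 1 of the 3 EHT-1864 arrays, so no fold is given. E2f1 and E2f7 had differences of -0.11 and 0.05 and did not pass, and E2f8 fell by 0.59 ± 0.19 (adjusted p = 0.0311), a call that was lost on leaving out any 1 of the 6 arrays (adjusted p from 0.0517 to 0.0897).

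Rrm2 had 7.06, 7.42 and 6.78 with EHT-1864 and fell by 1.23 ± 0.19 (adjusted p = 0.000361), 2.34-fold lower, while its partner Rrm1 had a difference of 0.29 ± 0.13 (adjusted p = 0.106). Fen1, the flap nuclease of Okazaki fragments, fell by 0.67 ± 0.14 (adjusted p = 0.00364), from 7.92, 7.79 and 7.76 to 7.24, 7.24 and 6.97. These genes lay below their controls on all 3 arrays. Cdc6 fell by 0.69 ± 0.18 (adjusted p = 0.0102), from 7.34, 7.20 and 7.20 to 6.63, 6.79 and 6.25. Gins4 and Gins3 fell by 0.57 and 0.58 (adjusted p = 0.00226 and 0.0198), unlike Gins2 of the same complex, and Gins3 did not pass without the first or the third hypoxia DMSO array or the third EHT-1864 array (adjusted p = 0.0765, 0.0648 and 0.0566). Rpa2 fell by 0.43 ± 0.11 (adjusted p = 0.0132), unlike Rpa1, and did not pass without the first hypoxia DMSO array (adjusted p = 0.0566).

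Pole2 passed as lower (log2 difference -0.92 ± 0.21, adjusted p = 0.00633), from 6.05, 5.55 and 6.01 to 5.02, 5.42 and 4.41, and Gmnn also did (-0.54 ± 0.13, adjusted p = 0.00905). Both were below the floor on all 3 EHT-1864 arrays and give no fold. With a common spread Cdc6, Gins3, Gins4, Rpa2, Fen1 and E2f8 did not pass as lower (adjusted p from 0.0554 to 0.628). The members nearest 0 were Tk1, Ung and Uhrf1, with differences of -0.02 (95% interval -0.33 to 0.28), -0.03 (-0.29 to 0.24) and 0.03 (-0.38 to 0.44). Tk1 had 6.62, 6.73 and 6.42 with DMSO and 6.71, 6.60 and 6.40 with EHT-1864, and Ung, which removes uracil from DNA, had 6.08, 6.08 and 6.11 and then 5.97, 6.29 and 5.93. Uhrf1 had 8.81, 9.24 and 8.59 with EHT-1864, around its control values, where with BFA it was far below them.

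**Figure D3:**
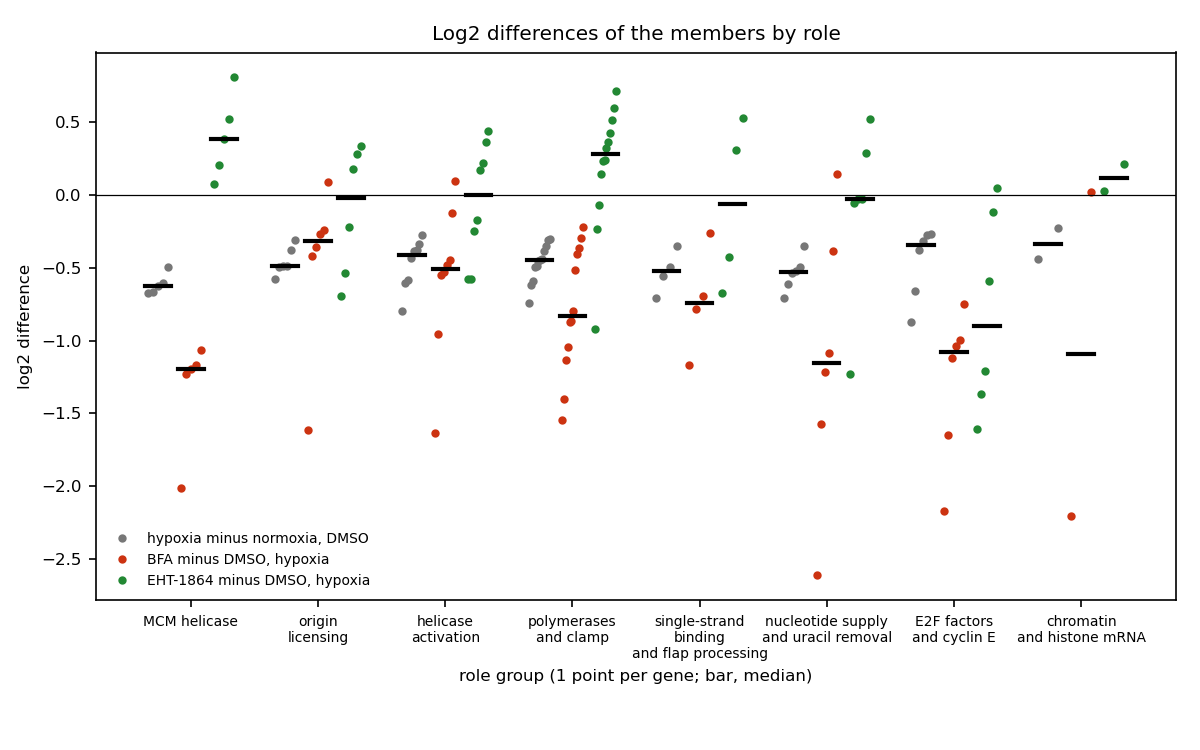
Log2 difference of each member (1 point per gene, y axis) by role (x axis) in 3 comparisons, with the median of each role as a bar. For the MCM genes the EHT-1864 points lie above 0 and the BFA points below -1, whereas for the E2F and cyclin E genes both compounds have medians below 0 (-1.08 with BFA and -0.90 with EHT-1864).

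By role, the median log2 difference with EHT-1864 was 0.38 for the MCM genes, 0.28 for polymerases and clamp, 0.00 for helicase activation, -0.02 for origin licensing, -0.03 for nucleotide supply, -0.06 for single-strand binding and flap processing, and -0.90 for E2F factors and cyclin E. With BFA the same medians were -1.19, -0.83, -0.50, -0.31, -1.15, -0.74 and -1.08. In hypoxia against normoxia they were -0.62, -0.45, -0.41, -0.49, -0.53, -0.52 and -0.34, a narrower range. The BFA and EHT-1864 differences share the hypoxia DMSO arrays and are therefore given side by side only.

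**Figure D4:**
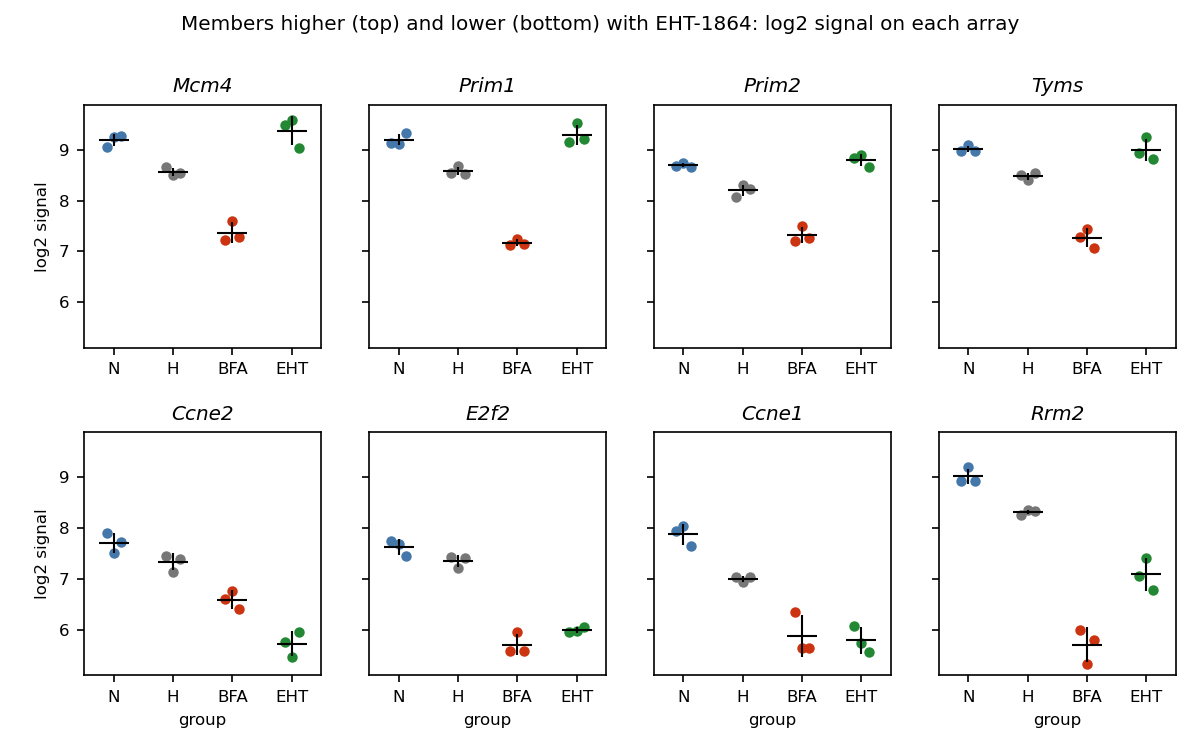
Log2 signal on each array (points, 3 per group), with group mean and SD (bars), for 4 members that rose (top) and 4 that fell (bottom) with EHT-1864; N is normoxia with DMSO and H hypoxia with DMSO. In the top row the EHT-1864 points lie above H and near N while the BFA points are lowest, and in the bottom row both compounds lie below H.

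Setting BFA against EHT-1864 directly, 35 members (71.4%) were lower with BFA and 2 higher, against 19.6% of all clusters lower and 16.9% higher, with a median log2 difference of -0.76. The median was -0.68 with members below the floor placed at their bounds, or at 0 where no bound could be had. Among the brighter clusters named above, 40.4% were lower and 24.0% higher. The log2 differences farthest from 0 among members that passed were those of Uhrf1 (-2.24 ± 0.19, adjusted p = 1.27e-06, above the floor on 1 of 3 BFA arrays), Mcm6 (-2.22 ± 0.13, adjusted p = 9.06e-08), Prim1 (-2.12 ± 0.13, adjusted p = 8.02e-08), Mcm4 (-2.00 ± 0.16, adjusted p = 6.6e-07), Rrm1 (-1.86 ± 0.13, adjusted p = 2.38e-07) and Mcm2 (-1.75 ± 0.14, adjusted p = 6.79e-07). Mcm6 had 9.41, 9.71 and 9.31 with EHT-1864 and Rrm1 had 10.01, 10.33 and 9.92, all above every BFA array. Mcm2 and Mcm4 had 7.24, 7.51 and 7.54, and 7.23, 7.60 and 7.28, with BFA. A total of 7 members, Mcm2, Mcm4, Gins2, Prim1, Prim2, Rpa1 and Tyms, were lower with BFA, higher with EHT-1864 and lower in the direct comparison. The calls against DMSO fix the sign of the direct difference, and the share of all clusters with this pattern was not counted.

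Ccne2 and Gins4 passed as higher with BFA than with EHT-1864. Ccne2 had 6.60, 6.77 and 6.40 with BFA and differed by 0.86 ± 0.16 (adjusted p = 0.00098), but only 1 of 3 arrays was above its floor in each group, and the floors themselves were 6.37 to 6.65 with BFA and 5.88 to 6.15 with EHT-1864. Gins4 had 9.22, 9.16 and 9.22 with BFA and 8.76, 8.59 and 8.89 with EHT-1864, a difference of 0.45 ± 0.11 (adjusted p = 0.0071), which did not pass with only these 6 arrays (adjusted p = 0.0543). The groups did not overlap for either gene. Ccne1 and E2f2, low with both compounds, had differences of 0.09 and -0.29 that did not pass (adjusted p = 0.763 and 0.119). Fen1 and Pole2 passed as lower with BFA than with EHT-1864 (adjusted p = 0.0158 and 0.0353; Pole2 was below the floor on every array of both groups), but not without the first BFA array or the first or second EHT-1864 array (adjusted p from 0.0519 to 0.149), and Pole2 also not without the second BFA array (adjusted p = 0.0708).

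Against normoxia with DMSO, 46 members (93.9%) were lower in hypoxia with BFA and 0 higher, where 24% of all clusters were lower and 23% higher, with a median of -1.35. The median was -0.91 with members below the floor placed at their bounds, or at 0 where no bound could be had. Among the brighter clusters named above, 47.3% were lower and 23.4% higher. Of the 46, 36 kept their call in every alternative, and the signs of Gins4 and Pcna turned with a common spread. Rrm2 had a log2 difference of -3.32, at least 5.77-fold lower against the floor, and 0 members were higher at limma's unadjusted p under 0.05, against 27.9% of all clusters. Orc1, Cdc45 and Slbp were the 3 that did not pass. Hypoxia with EHT-1864 had 20 members (40.8%) lower and 0 higher than normoxia, where 14.3% of all clusters were lower and 8.1% higher, with a median of -0.31. At limma's unadjusted p under 0.05, 0 were higher, against 14.5% of all clusters. Among the brighter clusters 32.7% were lower and 17.6% higher, so the 40.8% of members that were lower was not far from that share. The median with bounds was -0.23. Of the 20, 13 kept their call in every alternative. All 12 members that fell with EHT-1864 against hypoxia DMSO were among the 20, and none of the 8 that rose was. Both comparisons use the same EHT-1864 arrays, and every member's mean was lower in hypoxia with DMSO than in normoxia. The sign for the 12 was thus fixed by how they were picked, and the 8 were picked for a high EHT-1864 signal. Their place against normoxia is therefore a description and not separate evidence. For those 8 the log2 difference from normoxia ran from -0.18 (Rpa1) to 0.19 (Mcm4, 95% interval -0.15 to 0.53). Normoxia had the highest of the 4 group means for 44 members and EHT-1864 for the other 5. BFA had the lowest for 39 members, EHT-1864 for 9 and hypoxia with DMSO for 1.

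Combining the first 3 comparisons, Mcm2, Prim1 and Rpa1 were lower in hypoxia, lower still with BFA (Rpa1 not with a common spread) and higher with EHT-1864, and only Ccne1 was lower in all 3. The 19 members that passed only with BFA, as lower, included Mcm5 (not with a common spread), Mcm6, Cdc7, Rrm1 and Uhrf1. Not passing is not the same as no change. In hypoxia Mcm5, Mcm6 and Rrm1 had log2 differences of -0.60, -0.49 and -0.52 (limma adjusted p = 0.0548, 0.0761 and 0.0518). A further 8 fell with both compounds without passing in hypoxia, among them Cdc6, Rrm2, E2f2 and Ccne2. All 3 comparisons share the hypoxia DMSO arrays, so the calls are not independent. How many of all clusters had each pattern was not counted, so these counts have no background beside them. Orc1, Orc2, Cdc45, Pola1, Pold1, Ung and Slbp passed in none of the 3, at an adjusted p over 0.05 by limma in each.

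Of 46 other replication genes 44 were measured. With hypoxia 5 (11.4%) were lower and 0 higher, against 0.563% and 2.11% of all clusters, and at limma's unadjusted p under 0.05, 23 were lower and 0 higher. With BFA 30 (68.2%) were lower and 3 (6.82%) higher, against 24.6% and 26.1%, or 47.6% and 20.8% of the brighter clusters named above. With EHT-1864 15 (34.1%) were lower and 8 (18.2%) higher, against 17.4% and 13%. Both shares were near the 36.1% and 19.6% of the brighter clusters. The median log2 differences were -0.34, -0.74 and -0.13, the last with the opposite sign to the members' median of 0.14. In hypoxia, Chaf1a, the large subunit of the histone chaperone CAF-1, fell by 0.66 ± 0.11 (adjusted p = 0.00757), and Topbp1, which helps to recruit Cdc45, fell by 0.61 ± 0.12. Dna2, a nuclease of long flaps, fell by 0.85 ± 0.16, at least 1.35-fold against the floor. With BFA, the CAF-1 subunit Chaf1b fell by 2.08 ± 0.21 (at least 2.82-fold) and Fbxo5, an inhibitor of the anaphase-promoting complex, by 1.89 ± 0.13 (above the floor on 1 of 3 BFA arrays). Atad5, which unloads Pcna, fell by 1.85 ± 0.24 but was below the floor with BFA and gives no fold.

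With EHT-1864, Skp2, the ubiquitin ligase subunit that targets the inhibitor p27, fell by 1.50 ± 0.16 (adjusted p = 2.94e-05). Chtf8, a subunit of an alternative clamp loader, fell by 1.23 ± 0.13 and Cdc25a, the phosphatase that activates the cyclin E kinase, by 1.20 ± 0.20 (above the floor on 2 of 3 EHT-1864 arrays). Between the compounds, Chaf1b, the nucleoside diphosphate kinase Nme1 and Samhd1, which breaks down deoxynucleotides, were lower with BFA than with EHT-1864 (log2 differences -2.14, -1.60 and -1.60). Chaf1b and Samhd1 were below the floor with BFA, which gives bounds of at least 2.94-fold and 1.78-fold. The 5 that fell in hypoxia were Topbp1, Dna2, Rnaseh2b, Chaf1a and Asf1b.

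Of 15 RB and E2F regulators, 0 passed in hypoxia against normoxia, where 0.563% of all clusters were lower and 2.11% higher. Their 15 log2 differences ran from -0.59 to 0.35. By limma's unadjusted p under 0.05, 5 were lower and 1 higher, against 7.8% and 8% of all clusters. With BFA 10 (66.7%) were lower and 3 (20%) higher, against 24.6% and 26.1% of all clusters, or 47.6% and 20.8% of the brighter ones. With EHT-1864 4 (26.7%) were lower and 2 (13.3%) higher, against 17.4% and 13%, so both shares were near the background. Rbl1, the RB relative p107, fell with BFA by 2.12 ± 0.16 (at least 2.58-fold), Mybl2, a MYB factor of the cell cycle, by 1.66 ± 0.16 and E2f3, an E2F activator, by 1.61 ± 0.14 (at least 1.49-fold). Rbl2, the RB relative p130, fell with EHT-1864 by 1.22 ± 0.14 (adjusted p = 5.63e-05), E2f6, an E2F repressor, by 0.99 ± 0.19 (at least 1.22-fold) and Tfdp1, the dimer partner of E2F proteins, by 0.79 ± 0.11. Lin37, Lin52 and Lin54, of the complex that represses cell cycle genes in quiescence, were the 3 that were higher with BFA. Lin9 and Rbbp4 of the same complex were among the 10 that were lower, as were E2f5, Tfdp1, Tfdp2 and Rb1. The complex's genes thus went both ways. Of 8 measured reference genes of other functions, 0 passed in hypoxia (0 also by limma's unadjusted p under 0.05). With BFA 5 (62.5%) were lower and 1 (12.5%) higher, and with EHT-1864 2 (25%) were lower and 0 higher, beside the same shares of all clusters. The 62.5% lower with BFA was close to the 68.2% of the other replication genes and the 66.7% of the regulators. Those shares are thus not particular to replication genes.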

How the data were processed

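The deposited values are on the log2 scale, made by the authors with RMA in Affymetrix Expression Console, per the submitters' processing notes; their versions, settings and genome build are not given in the sources used here. RMA is meant to make array distributions alike and hides differences in total RNA. The deposited distributions still differed between the groups in their spread and in the share below the floor, as given above. Of 28846 rows, 6640 controls were left out. Platform annotation gave 19572 of 22206 clusters 1 symbol, and 2634 none. All 12 arrays were fitted with limma 3.58.1 in R 4.3.3 (no trend, not robust), with Benjamini-Hochberg adjustment over all clusters of each of 6 comparisons. The script was tested on simulated data. The members and lists were chosen with earlier results of these data known, so no list was tested. Genes with all values shown were the 6 largest called differences per comparison among the first 4, calls against the majority, members called in the first 3 comparisons at once, and the 3 smallest differences per compound; Pcna, Fen1 and Cdc6 were added after their values were seen. In the other replication and RB-E2F lists, the 3 largest called differences were named. Same-numbered arrays did not deviate together (correlations from -0.18 to 0.17), so numbers were not used as pairs. The alternatives were quantile normalization, subtracting each array's median, scaling arrays to a common median absolute deviation (the common spread), leaving out dim clusters (2 ways), a trended robust variance, array weights, fitting only the 6 arrays compared, a replicate block, averaging a gene's clusters, and leaving out each array. Promoter windows are from RefSeq (GRCm38.p6). The number of arrays limits the precision.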

Additional observations from a re-analysis of the deposited data

How the results depend on the processing

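In hypoxia against normoxia, 9 members were past the threshold, and the number was 17 after quantile normalization, 22 without the dimmest 25% of clusters, 26 with clusters of log2 6 or more on at least 3 arrays, 24 with a trended robust variance, 32 with array weights and 26 with only the 6 arrays compared. Leaving out 1 array gave 2 to 23, and the median difference stayed between -0.54 and -0.46. All calls of members were lower in each of these. The background moved as well: 151 of 22206 clusters were lower and 416 higher after quantile normalization, against 125 and 468 before. Among clusters of log2 6 or more on at least 3 arrays, 4.59% were lower and 7.40% higher. For the other settings the share of all clusters is not given here. The BFA median of -0.86 was -0.56 after quantile normalization and -0.39 with a common spread, where Pcna (0.75, adjusted p = 0.00293), Cdt1 (0.29), Orc6 (0.10) and Rpa1 (0.000363, in effect 0) turned from lower, and Gins4 (0.69), Rfc4 (0.51) and Rpa2 (0.34), not past the threshold before, passed as higher (adjusted p = 0.000832, 0.00375 and 0.0363). For EHT-1864, the 8 members that rose became 19 after quantile normalization and 22 with a common spread, the 12 that fell became 6 with a common spread, and the median of 0.14 became 0.44. Of all 22206 clusters, 2893 rose before, 2978 after quantile normalization and 4267 with a common spread. Leaving out 1 array gave 5 to 9 members that rose and 9 to 12 that fell. Leaving out 1 array gave 33 to 38 members past the threshold with BFA and 35 to 38 between the compounds. Over all alternatives, 25 of the 38 members lower with BFA kept their call, 5 of the 12 lower and 5 of the 8 higher with EHT-1864, 30 of the 35 lower with BFA than with EHT-1864, and 2 of the 9 lower in hypoxia. Against normoxia, 36 of the 46 members lower with BFA and 13 of the 20 lower with EHT-1864 kept theirs. The cause was not tested. With a common spread the share of lower among all calls moved from 48.5% to 38.1% for BFA and from 57.2% to 37.7% for EHT-1864. For EHT-1864 against normoxia it moved from 63.8% to 44.1%, and to 53.1% after quantile normalization. With a replicate block, 7 members were past the threshold in hypoxia against normoxia, 38 with BFA, 20 with EHT-1864, 37 between the compounds, and 46 and 20 for BFA and EHT-1864 against normoxia; with the block Gmnn and Rpa2 lost their calls in hypoxia, and between the compounds Pole2 lost and Tk1 gained one (adjusted p = 0.0533 and 0.0443). The numbers are not known to pair cultures. Averaging clusters changed nothing for members, as each has 1. Signal over background limits what can be said of the 15 members below the floor on all BFA arrays, the 12 below it on some, and the 3 and 5 such members with EHT-1864.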
